A study of Mus musculus with 20 samples.

Results

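Pancreatic acinar genes were followed across the arrays as a measure of exocrine tissue in mouse islet preparations. The list named 37 genes, each read by the probe set that carries its symbol alone and has the highest mean over the 20 arrays. Of these, 33 were measured, out of 19938 genes that had such a probe set. Pnlip and Klk1 matched no listed probe set, and Prss1 and Amy2b were found only on probe sets that also carry the symbols of close paralogues. All values are log2 levels from robust multichip analysis on the MoGene 1.0 ST array, a whole-transcript array, so a difference of 1 is a factor of 2 in signal.

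All mice were C57bl6/J. The grafts were islets of female or male donors placed under the kidney capsule of adult female hosts that had been made diabetic with streptozotocin, and they were collected on pregnancy day 12.5, called P12.5 (3 female and 3 male grafts), or from non-pregnant hosts (NP; 3 female and 3 male grafts). The islets had stayed in the pancreas of females, 4 samples at P12.5 and 4 from NP mice. Hosts whose diabetes the graft did not correct were not used for mating. The islet titles carry the word reanalysis and the graft titles do not, so array batch, streptozotocin treatment of the host and transplantation cannot be told apart in any comparison of grafts with islets.

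Acinar cells make up most of the pancreas and surround the islets. They store digestive enzymes in zymogen granules, most of them as inactive precursors such as trypsinogen, chymotrypsinogen, proelastase and procarboxypeptidase, and release them into the ducts. Their enzyme genes are driven by PTF1, a complex of Ptf1a, a common E protein and Rbpj or its acinar paralogue Rbpjl, which binds an E-box followed by a TC-box. Bhlha15 (also called Mist1) organises the secretory granules, and Nr5a2 acts on the same enzyme genes. Islets are freed from this tissue with collagenase, and exocrine cells that stay attached carry very abundant enzyme mRNA into an islet sample.

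Some promoters of enzyme genes hold the paired sequence that PTF1 is known to bind, and 3 measured members with the paired motif are printed with Bhlha15, the transcription factor that lay above the array median in every graft. The 250 bases before the start site were searched on both strands for CANNTG followed within 25 bases, in the same direction, by TTTCCC, and for CACCTG and TATAAA. The motifs were chosen after the promoters had been looked at, and matches are a description, not sites of binding. RefSeq windows (GRCm38.p6) were found for 29 of the 37 genes, 32 windows in all. The pair was present in 4 of these 32 windows (12.5%) and in 2.45% of all promoter windows, CACCTG in 17 (53.1%; 17.2% of all) and TATAAA in 12 (37.5%; 12.4% of all), while TTTCCC alone was as frequent as elsewhere (21.9% in both). Sequences run 5′ to 3′ on the gene's strand, and capitals mark the pair, CACCTG or its reverse CAGGTG, and TATAAA on the printed strand; some pairs share letters with CACCTG.
Ctrb1: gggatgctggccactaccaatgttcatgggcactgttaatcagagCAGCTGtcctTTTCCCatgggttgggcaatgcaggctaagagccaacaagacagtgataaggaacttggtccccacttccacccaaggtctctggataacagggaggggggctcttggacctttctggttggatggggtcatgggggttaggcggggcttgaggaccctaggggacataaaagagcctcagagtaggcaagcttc
Cel: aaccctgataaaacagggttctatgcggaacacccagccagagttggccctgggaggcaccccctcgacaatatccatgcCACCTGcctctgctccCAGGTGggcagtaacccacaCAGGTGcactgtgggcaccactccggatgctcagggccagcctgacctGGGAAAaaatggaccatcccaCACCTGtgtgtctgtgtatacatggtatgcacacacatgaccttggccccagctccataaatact
Cela1: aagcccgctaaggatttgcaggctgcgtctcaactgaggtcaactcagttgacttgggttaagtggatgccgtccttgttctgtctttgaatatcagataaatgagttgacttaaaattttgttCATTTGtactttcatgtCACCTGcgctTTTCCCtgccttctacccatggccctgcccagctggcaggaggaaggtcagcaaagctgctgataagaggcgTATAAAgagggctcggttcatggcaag
Bhlha15: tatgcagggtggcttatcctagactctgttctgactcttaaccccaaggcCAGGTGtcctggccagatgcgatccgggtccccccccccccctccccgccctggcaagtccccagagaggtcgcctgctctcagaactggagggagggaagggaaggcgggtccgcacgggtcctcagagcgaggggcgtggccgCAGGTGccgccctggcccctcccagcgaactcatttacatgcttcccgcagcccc

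The Ctrb1 window (chr8:111691011-111691260, minus strand) holds CAGCTG and TTTCCC with 4 bases between them. In Cela1 (chr15:100687921-100688170, minus strand) CACCTG stands 4 bases before TTTCCC, and a TATAAA begins 27 bases before the start site. The Cel pair (chr2:28563404-28563653, minus strand) lies on the other strand with a gap of 15 bases, beside further E-boxes. Bhlha15 (chr5:144190036-144190285, plus strand) has 2 CAGGTG and no pair in this window.

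Arrays within a group correlated between 0.971 and 0.989, and array medians lay between 5.9 and 6.0. Levels of Ins2, an insulin gene, overlapped between the sites, at 10.8 to 11.0 in the grafts and at 10.2 to 11.0 in the islets. NP islet array 3 was low in acinar genes and NP islet array 1 was low in the endocrine list (mean 11.2, against 11.5 to 11.6 in the other islet arrays). Kidney genes were higher in every graft than in any islet array: the 30 measured kidney genes averaged 5.77 to 8.06 per graft, against 5.37 to 5.53 per islet array, with Umod at 5.8 to 10.2 against 5.2 to 5.6 and Slc34a1 at 7.0 to 10.7 against 5.8 to 6.1.

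Most digestive enzyme genes lay near or below the array median in every graft and well above it in the islets. In grafts against islets of the same state, 23 of 33 members fell in female grafts at P12.5 (background 1.22% of all 35511 probe sets called down), 26 in female grafts NP (5.02%), 24 in male grafts at P12.5 (2.56%) and 25 in male grafts NP (5.25%). Calls needed a Benjamini-Hochberg adjusted p under 0.05 over all probe sets in limma and a fold of at least 1.5. The median member differed by -2.71, -2.92, -2.74 and -2.86 in the same order, against -0.07, -0.08, -0.08 and -0.07 over all genes. 1 member was called up, Dnase1 in female grafts NP (background 5.99%), and no member in the others (2.83% for female grafts at P12.5, 4.7% for male grafts at P12.5 and 5.94% for male grafts NP). The female and male comparisons share the islet arrays.

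Per array, the mean over the 33 genes was 5.20 to 5.29 in female grafts at P12.5, 5.28 to 5.34 in male grafts at P12.5, 5.16 to 5.25 in female grafts NP and 5.13 to 5.26 in male grafts NP, against 7.22 to 8.18 in islets at P12.5 and 6.88 to 8.42 in islets NP. The lowest islet array was still well above the highest graft. Of the 33 genes, 1 to 5 exceeded the array median in a graft and 21 to 27 did so in an islet array. In these bulk samples fewer acinar cells and less acinar RNA per cell cannot be told apart.

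**Figure D1:**
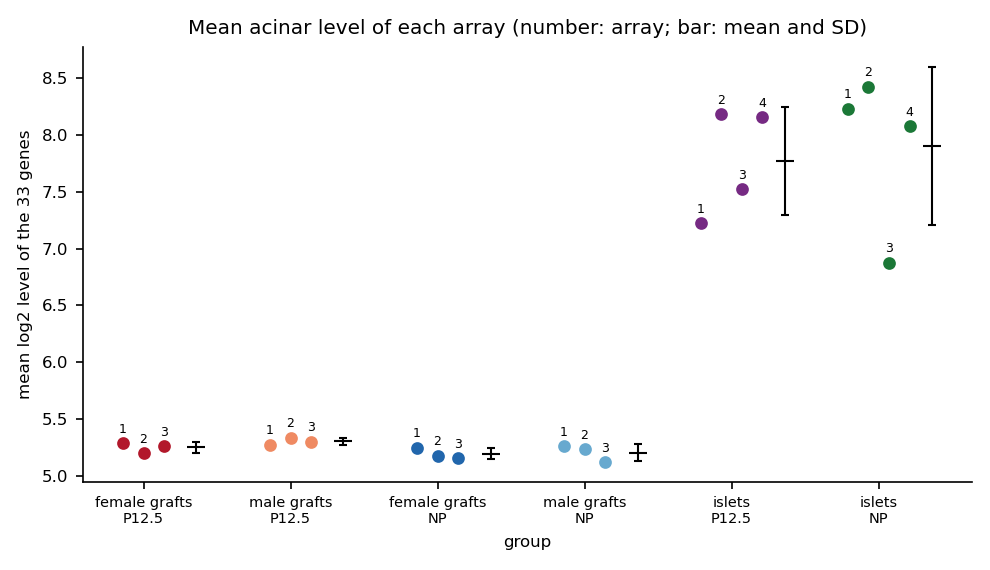
Mean log2 level of the 33 measured acinar genes in each array, by group, with the group mean and SD beside the points and the array number above each. The 12 grafts lie between 5.13 and 5.34 and the 8 islet arrays between 6.88 and 8.42, with NP islet array 3 lowest of the islets.

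The same 23 members fell in all 4 comparisons, and for each of them the graft and islet values did not overlap in any of the 4. The 23 were picked by these same calls, so the lack of overlap largely follows from the choice. The share of all probe sets that fell in all 4, or did not overlap, was not counted, and the comparisons share islet arrays. The 23 members comprise 4 of 4 measured trypsinogens, 2 of 3 chymotrypsins, 3 of 3 elastases, 2 of 2 carboxypeptidases, 5 of 5 lipases and their cofactor, the 1 measured amylase, 4 of 4 granule proteins, 1 of 2 nucleases and 1 of 3 other genes. Serpini2, Aqp12 and Erp27 fell in some comparisons, and 7 members fell in none: Ctrc, Spink1, Ptf1a, Bhlha15, Rbpjl, Nr5a2 and Dnase1. In the grafts these levels lay between the low end of the scale and the array median, or slightly above it, with array lower quartiles of 4.7 to 4.9, so the fold changes describe these arrays and are not exact sizes of the change in RNA.

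**Figure D2:**
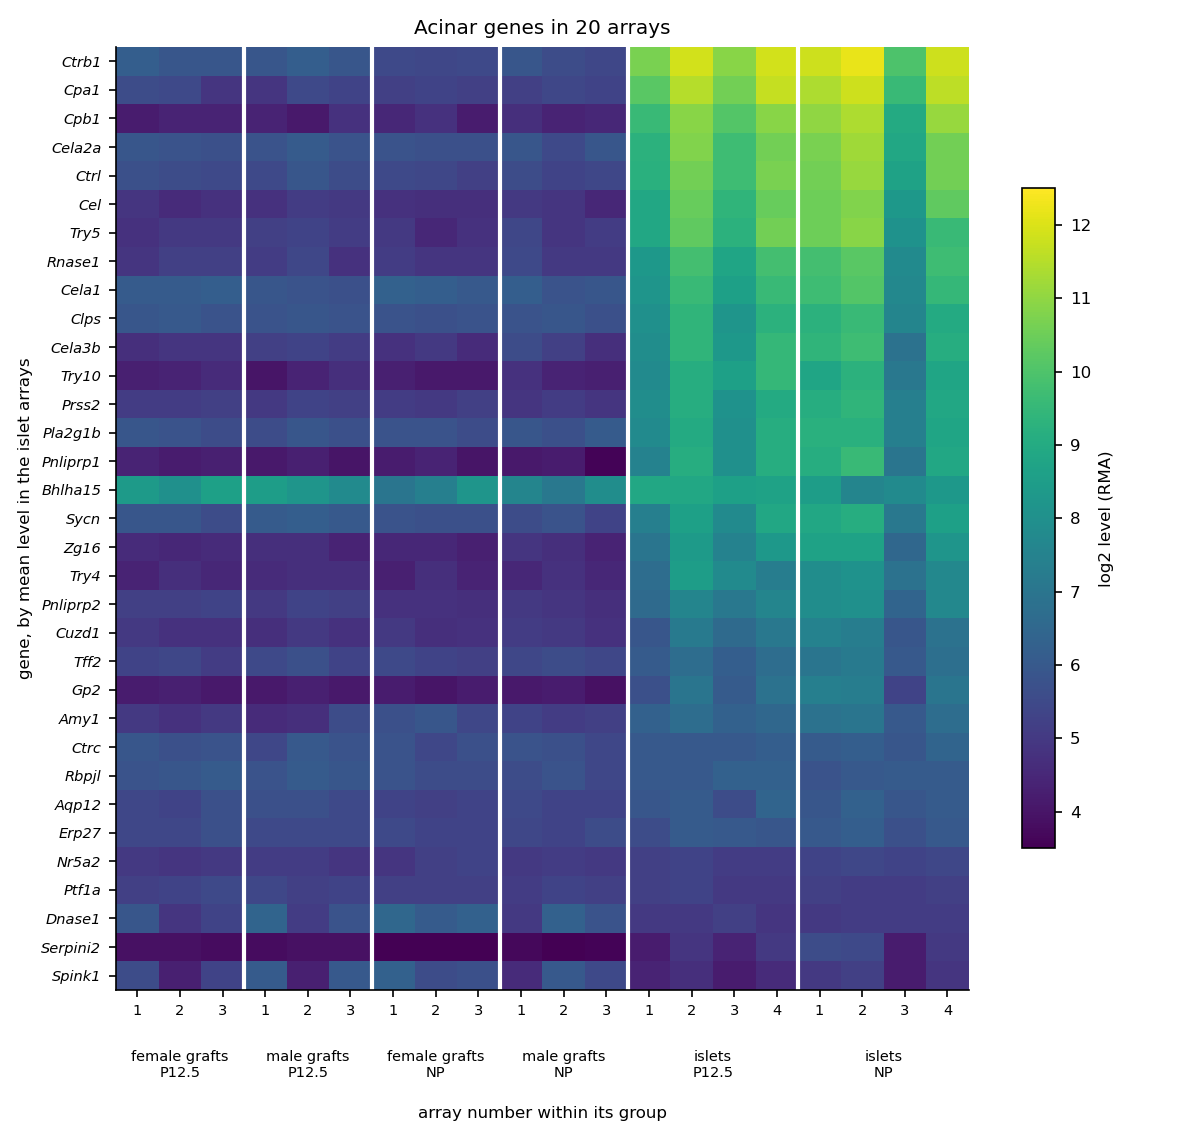
Log2 level of the 33 measured genes in each of the 20 arrays, from dark (low) to bright (high), with genes ordered by their mean over the islet arrays and arrays grouped by site and state. Most enzyme genes are darker in all 12 grafts than in the islets, Ctrc and Dnase1 being exceptions, NP islet array 3 is dimmer than its neighbours, and Bhlha15 stays bright in the grafts.

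The carboxypeptidases, which remove amino acids from the C-terminal end of peptides, had 2 of the 3 largest falls in female grafts NP. Cpb1, carboxypeptidase B1, read 4.2, 4.4 and 4.4 in female grafts at P12.5, 4.4, 4.1 and 4.8 in male grafts at P12.5, 4.5, 4.8 and 4.2 in female grafts NP and 4.7, 4.4 and 4.5 in male grafts NP, against 9.6, 10.9, 10.1 and 10.9 in islets at P12.5 and 11.0, 11.4, 9.0 and 11.1 in islets NP. Every graft was far below every islet array. In female grafts NP Cpb1 was 69.8-fold lower (-6.13 ± 0.43, SE; adjusted p = 1.02e-07, limma).

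Cpa1, carboxypeptidase A1, read 5.6, 5.5 and 4.9 in female grafts at P12.5, 4.9, 5.5 and 5.3 in male grafts at P12.5, 5.2, 5.3 and 5.2 in female grafts NP and 5.2, 5.4 and 5.3 in male grafts NP, against 10.2, 11.5, 10.6 and 11.7 in islets at P12.5 and 11.4, 11.8, 9.6 and 11.6 in islets NP. The 4 graft groups overlapped each other and none reached the islets. Cpa1 fell by 5.87 ± 0.42 (SE) on the log2 scale in female grafts NP and by 5.77 ± 0.42 in male grafts at P12.5.

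The chymotrypsins split. Ctrb1, which encodes chymotrypsinogen B, read 6.2, 5.9 and 5.9 in female grafts at P12.5, 5.9, 6.2 and 5.9 in male grafts at P12.5, 5.5, 5.4 and 5.5 in female grafts NP and 5.9, 5.6 and 5.4 in male grafts NP, against 10.7, 11.9, 10.9 and 11.9 in islets at P12.5 and 11.8, 12.2, 10.0 and 11.8 in islets NP. It was 63.3-fold lower in female grafts NP (adjusted p = 5.13e-08, limma) and 40.8-fold lower in female grafts at P12.5 (adjusted p = 1.95e-07). Ctrl, a chymotrypsin-like protease, was 29.5-fold lower in female grafts NP. Ctrc, chymotrypsin C, was at 5.4 to 6.0 in the grafts and at 5.9 to 6.4 in the islets, and its difference of -0.52 ± 0.15 in female grafts NP (adjusted p = 0.0148) stayed under the fold limit.

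Among the trypsinogens, Try5 read 4.8, 5.0 and 5.0 in female grafts at P12.5, 5.2, 5.3 and 5.1 in male grafts at P12.5, 5.0, 4.5 and 4.8 in female grafts NP and 5.4, 4.9 and 5.1 in male grafts NP, against 8.9, 10.3, 9.3 and 10.6 in islets at P12.5 and 10.5, 10.9, 8.1 and 9.6 in islets NP. The islet values were widely spread and still clear of the grafts. The measured trypsinogens Prss2, Try4, Try5 and Try10 fell in all 4 comparisons, with differences of -5.01 to -3.18 in female grafts NP. These genes are near-identical copies, so a probe set may read more than its own gene and the 4 values are not independent.

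The elastases, serine proteases of the same granules, fell in all 4 comparisons, with differences of -4.62 to -3.08 in female grafts NP. Cela2a read 5.9, 5.8 and 5.7 in female grafts at P12.5, 5.8, 6.1 and 5.8 in male grafts at P12.5, 5.8, 5.7 and 5.7 in female grafts NP and 5.9, 5.5 and 5.9 in male grafts NP, against 9.3, 10.8, 9.7 and 10.6 in islets at P12.5 and 10.7, 11.2, 8.9 and 10.6 in islets NP. Cela1 and Cela3b were 8.48-fold and 15.7-fold lower in female grafts NP. Cela3b shares sequence with Cela3a, so its value is less certain.

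All 5 genes of fat digestion fell. Cel, the bile salt-stimulated carboxyl ester lipase, read 4.9, 4.6 and 4.8 in female grafts at P12.5, 4.8, 5.1 and 5.0 in male grafts at P12.5, 4.8, 4.7 and 4.7 in female grafts NP and 5.0, 4.9 and 4.5 in male grafts NP, against 8.9, 10.4, 9.4 and 10.4 in islets at P12.5 and 10.5, 10.8, 8.3 and 10.3 in islets NP. It was 37.8-fold lower in female grafts NP (adjusted p = 1.17e-06, limma). The lipase relatives Pnliprp1 and Pnliprp2, colipase (Clps), which anchors lipase to fat droplets, and phospholipase A2 (Pla2g1b) fell too, with differences of -4.45 to -2.73 in the same comparison.

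Amylase, which digests starch, was represented among the measured members by a gene of modest change. The 6 probe sets shared by the pancreatic amylases Amy2a2, Amy2a5 and Amy2b, not counted as members, differed far more. They ranged from 3.6 to 4.7 in the grafts and from 10.7 to 12.8 in the islets. Amy1, the salivary-type amylase, read 5.0, 4.8 and 5.0 in female grafts at P12.5, 4.6, 4.7 and 5.6 in male grafts at P12.5, 5.7, 5.9 and 5.4 in female grafts NP and 5.3, 5.1 and 5.2 in male grafts NP, against 6.3, 6.7, 6.3 and 6.5 in islets at P12.5 and 6.9, 7.0, 6.0 and 6.7 in islets NP. The highest graft at 5.9 lay just under the lowest islet array at 6.0. It was 1.98-fold lower in female grafts NP (adjusted p = 0.00502, limma) and 2.86-fold lower in female grafts at P12.5 (adjusted p = 0.000631).

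Of the nucleases, Rnase1 followed the proteases. This secreted ribonuclease read 4.9, 5.2 and 5.2 in female grafts at P12.5, 5.1, 5.4 and 4.8 in male grafts at P12.5, 5.1, 4.9 and 4.9 in female grafts NP and 5.5, 5.0 and 5.0 in male grafts NP, against 8.3, 9.8, 8.8 and 9.8 in islets at P12.5 and 9.8, 10.2, 7.8 and 9.7 in islets NP. It was 21.2-fold lower in female grafts NP and 16.9-fold lower in female grafts at P12.5.

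Granule proteins fell with their cargo. Sycn, syncollin, a protein of the zymogen granule membrane, read 5.9, 5.9 and 5.6 in female grafts at P12.5, 6.1, 6.2 and 6.0 in male grafts at P12.5, 5.8, 5.7 and 5.7 in female grafts NP and 5.6, 5.8 and 5.3 in male grafts NP, against 7.4, 8.6, 7.8 and 8.9 in islets at P12.5 and 8.9, 9.1, 7.1 and 8.6 in islets NP. Sycn, Zg16, Gp2, the main glycoprotein of that membrane, and Cuzd1 fell in all 4 comparisons, with differences of -3.59 to -2.07 in female grafts NP. Tff2, a trefoil peptide, read 5.3, 5.4 and 5.1 in female grafts at P12.5, 5.5, 5.7 and 5.3 in male grafts at P12.5, 5.5, 5.3 and 5.2 in female grafts NP and 5.4, 5.6 and 5.4 in male grafts NP, against 6.1, 6.7, 6.2 and 6.7 in islets at P12.5 and 7.0, 7.2, 6.0 and 6.8 in islets NP. Its fall was called in all 4 comparisons, and in male grafts at P12.5 (1.90-fold lower; adjusted p = 0.00937) the call was lost without male graft array 3 (adjusted p = 0.0663).

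**Figure D3:**
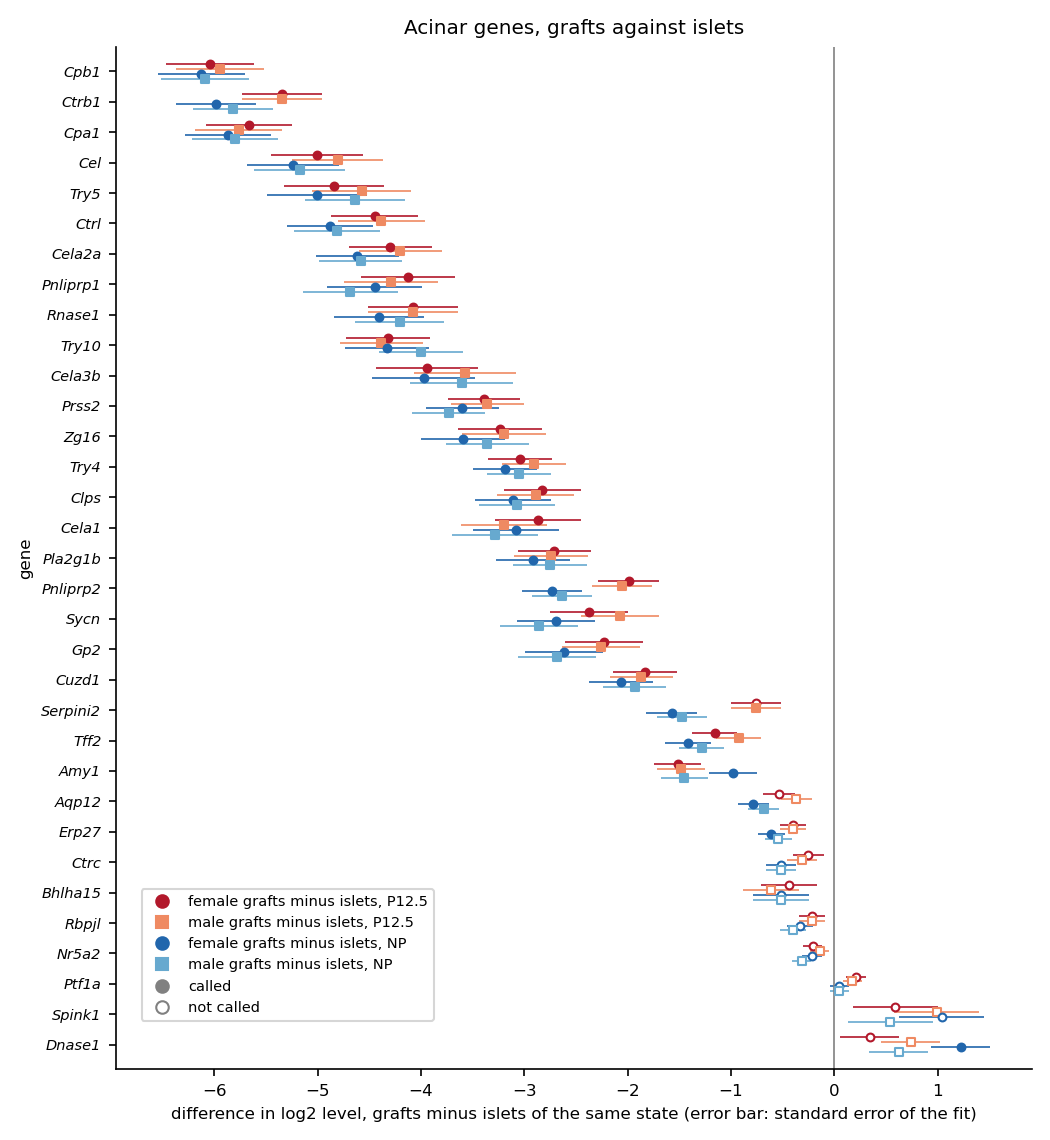
Difference in log2 level between grafts and islets of the same state for each measured gene, with the standard error of the fit; filled symbols passed both limits. The 23 genes called in all 4 comparisons lie between -6.13 and -0.93, and the transcription factors, Ctrc, Spink1 and Dnase1 lie from -0.61 upwards.

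Serpini2, a serine protease inhibitor of acinar cells, read 3.9, 3.9 and 3.8 in female grafts at P12.5, 3.8, 3.9 and 3.9 in male grafts at P12.5, 3.5, 3.5 and 3.5 in female grafts NP and 3.7, 3.5 and 3.6 in male grafts NP, against 4.2, 4.9, 4.4 and 5.0 in islets at P12.5 and 5.6, 5.5, 4.2 and 5.0 in islets NP. It fell by 1.58 ± 0.25 (SE) on the log2 scale in female grafts NP and by 1.48 ± 0.25 in male grafts NP. At P12.5 the difference was -0.76 ± 0.25 for either donor sex, called in male grafts (adjusted p = 0.0465) and not in female grafts (adjusted p = 0.0716), and the male call was lost in 8 alternative settings, among them leaving out any of the male P12.5 grafts or islet arrays 2, 3 or 4 at P12.5 (adjusted p from 0.0556 to 0.132). Aqp12, a pancreatic water channel, fell in both NP comparisons (1.72-fold lower in female and 1.61-fold lower in male grafts), and Erp27, a chaperone-binding protein of the endoplasmic reticulum, passed in female grafts NP (1.52-fold lower; adjusted p = 0.0026) and dropped under the fold limit in 5 alternative settings, among them leaving out NP islet array 2 or female graft NP array 2 or 3.

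No transcription factor of the acinar programme was called in any graft against islet comparison. Ptf1a, a founding factor of the pancreas, read 5.2, 5.3 and 5.5 in female grafts at P12.5, 5.4, 5.2 and 5.3 in male grafts at P12.5, 5.2, 5.2 and 5.2 in female grafts NP and 5.1, 5.3 and 5.2 in male grafts NP, against 5.2, 5.3, 5.0 and 5.0 in islets at P12.5 and 5.2, 5.1, 5.1 and 5.2 in islets NP. Nr5a2 read 5.0, 4.9 and 5.0 in female grafts at P12.5, 5.1, 5.1 and 4.9 in male grafts at P12.5, 4.9, 5.2 and 5.3 in female grafts NP and 5.0, 5.1 and 5.0 in male grafts NP, against 5.2, 5.3, 5.1 and 5.1 in islets at P12.5 and 5.3, 5.4, 5.3 and 5.4 in islets NP. Both genes were below the array median at either site, also in the islet arrays in which their enzyme targets were highest. Rbpjl lay at 5.4 to 6.1 in the grafts and at 5.8 to 6.3 in the islets (-0.33 ± 0.12 in female grafts NP, adjusted p = 0.0497, under the fold limit).

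Bhlha15 was well above the array median in every graft. It read 8.4, 8.0 and 8.6 in female grafts at P12.5, 8.5, 8.2 and 7.8 in male grafts at P12.5, 7.0, 7.4 and 8.2 in female grafts NP and 7.6, 7.1 and 7.9 in male grafts NP, against 8.9, 8.9, 8.6 and 8.7 in islets at P12.5 and 8.5, 7.6, 7.8 and 8.3 in islets NP. The differences between grafts and islets ran from -0.61 to -0.44 and none was called, with adjusted p from 0.141 to 0.339. Within the islets its array-to-array deviations did not follow those of the other members (r = 0.17, rho = -0.04, 8 arrays).

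Dnase1 and Spink1 had higher means in each graft group than in the islets of the same state. Dnase1, an endonuclease that the kidney also makes, read 5.9, 4.9 and 5.3 in female grafts at P12.5, 6.4, 5.1 and 5.8 in male grafts at P12.5, 6.5, 6.1 and 6.3 in female grafts NP and 5.0, 6.3 and 5.8 in male grafts NP, against 5.0, 5.0, 5.2 and 4.9 in islets at P12.5 and 5.0, 5.1, 5.1 and 5.1 in islets NP. It rose in female grafts NP (1.22 ± 0.29, SE, 2.34-fold, adjusted p = 0.00478, limma). With all arrays it was not called in female grafts at P12.5 (0.34), male grafts at P12.5 (0.74) or male grafts NP (0.625). Leaving out the lowest graft of the group gave a call in male grafts at P12.5 (without array 2, 1.07, adjusted p = 0.0147). The same held in male grafts NP (without array 1, 0.97, adjusted p = 0.0205). Spink1, the trypsin inhibitor of the pancreatic juice, read 5.6, 4.3 and 5.3 in female grafts at P12.5, 6.1, 4.3 and 6.0 in male grafts at P12.5, 6.3, 5.6 and 5.7 in female grafts NP and 4.6, 6.0 and 5.5 in male grafts NP, against 4.4, 4.7, 4.2 and 4.6 in islets at P12.5 and 5.0, 5.2, 4.2 and 4.9 in islets NP. Its difference of 1.04 ± 0.41 in female grafts NP missed the threshold (adjusted p = 0.0661). Nor was Spink1 called in female grafts at P12.5 (0.59), male grafts at P12.5 (0.99) or male grafts NP (0.54). Male grafts at P12.5 passed the threshold only without array 2, the lowest of that group (1.57, adjusted p = 0.00782). For both genes, leaving out the lowest graft raises the difference by construction, so these calls add nothing to the fits with all arrays.

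Kidney markers moved with both genes from graft to graft. The 3 grafts lowest in the kidney list, female graft 2 at P12.5, male graft 2 at P12.5 and male graft 1 NP, had means of 5.77, 6.20 and 6.12, and the other 9 grafts had means of 6.85 to 8.06. In those 3 grafts Spink1 was at 4.3, 4.3 and 4.6 and Dnase1 at 4.9, 5.1 and 5.0, close to the islets. In the islets, where kidney list means were 5.37 to 5.53, Spink1 instead moved with the enzymes (r = 0.93, rho = 0.95, 8 arrays). Of the kidney list, 6 of 30 measured genes rose in female grafts at P12.5, 22 in female grafts NP, 18 in male grafts at P12.5 and 19 in male grafts NP, where 2.83%, 5.99%, 4.7% and 5.94% of all probe sets were called up. The part of kidney RNA in these results was not tested.

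**Figure D4:**
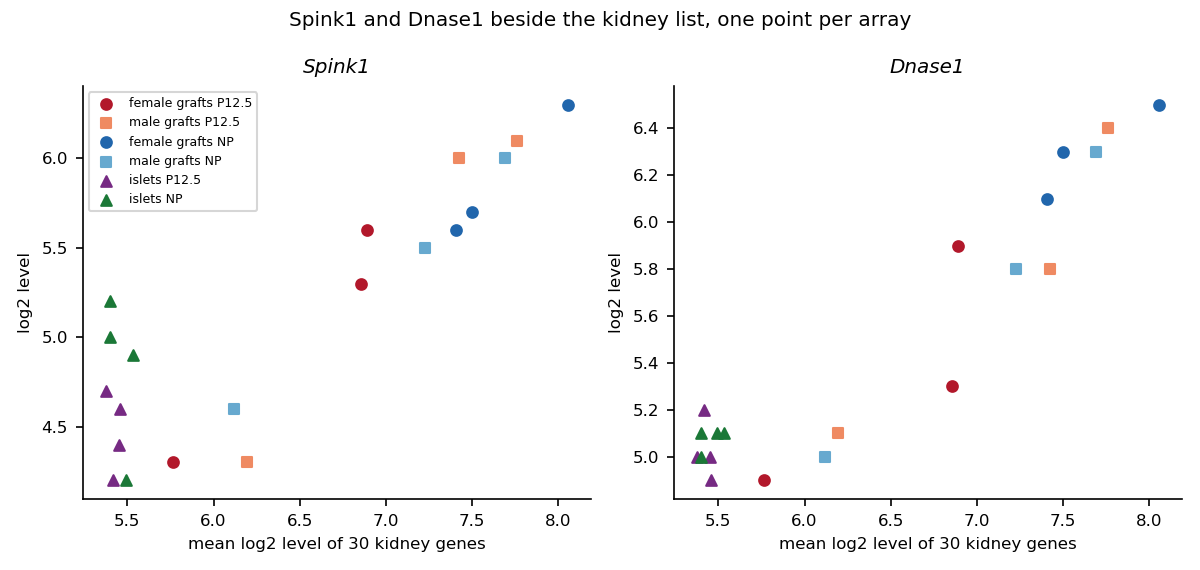
Log2 level of Spink1 and Dnase1 against the mean log2 level of 30 kidney genes, a point per array, coloured by group. Grafts with a kidney mean of 6.85 or more lie at 5.3 or more for both genes, and the 3 grafts with kidney means of 5.77 to 6.20 lie at 4.3 to 5.1.

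The islet arrays differed greatly in acinar content, and nearly all enzyme genes varied together between them. Within groups the 23 genes had a median SD of 0.86 in the islets, against 0.12 for all 19938 genes, and of 0.16 in the grafts, against 0.17 for all genes. Taking deviations from the group mean over the 8 islet arrays, a member correlated with the mean of the others at a median r of 0.99 (rho 0.92), and 24 of 33 members reached 0.9. The values share arrays and their normalisation, and no test was made. Without NP array 3 and P12.5 array 1, the 2 arrays farthest out, the median r was 0.95 (rho 0.81) and 20 members reached 0.9. The group means still included those 2 arrays, so these values are not free of their influence. In the 12 grafts the median r was 0.23 (rho 0.29). The 23 genes were chosen by their fall from islets to grafts and averaged 4.97 to 5.27 per graft. Such low levels, rounded to 1 decimal, leave little room for spread or covariation in the grafts. The share of all genes that reached an r of 0.9 was not counted.

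NP islet array 3 was the lowest islet array for 22 of the 23 genes, ties included, Try4 being the exception. Its difference from the mean of the other NP arrays ran from -2.5 (Cela3b) to -0.87 (Amy1), with a median of -1.93. P12.5 arrays 1 and 3 were lower than P12.5 arrays 2 and 4, with means over the 33 genes of 7.22 and 7.52 against 8.18 and 8.15. The low arrays were found in both states. Ptf1a, Rbpjl and Dnase1 had r of 0.15, -0.20 and -0.36 with the rest.

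No acinar gene passed both limits between pregnant and non-pregnant mice in the islets. None of 33 members was called between P12.5 and NP islets (background 0.614% called up and 0.11% called down), 2 had an unadjusted p under 0.05, and the lowest adjusted p was 0.125. The median member differed by -0.18, against 0 over all genes, with 28 of 33 differences below 0, 3 above and 2 at 0. The shares of all genes by sign, or under that unadjusted p, were not counted. The median was -0.58 without NP array 3 and 0.03 without P12.5 array 1 or without NP array 2, and no member was called in any of these fits. The standard error of a member was 0.44 at the median, against 0.10 over all probe sets, so that differences of the size seen here could not be told from the spread between arrays. For Ctrb1, the P12.5 islets averaged 11.4 ± 0.64 and the NP islets 11.5 ± 0.98 (SD, n = 4 each).

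Bhlha15 had the lowest adjusted p of the members in the islets. It averaged 8.78 ± 0.15 in P12.5 islets and 8.05 ± 0.42 in NP islets (SD, n = 4 each), and the groups did not overlap. The difference of 0.72 ± 0.19 (SE) had an unadjusted p of 0.0037 and an adjusted p of 0.125 in limma. Female grafts gave 0.80 ± 0.31 (adjusted p = 0.168) and male grafts 0.63 ± 0.31 (adjusted p = 0.285), with P12.5 and NP values overlapping in either sex. Over both donor sexes the difference was 0.72 ± 0.22 (1.64-fold; adjusted p = 0.0524), and 5 of 18 alternative settings took it past the threshold, among them leaving out female graft NP array 3 (adjusted p = 0.0203) or male graft P12.5 array 3 (adjusted p = 0.0499), with adjusted p from 0.0194 to 0.112 over all 18.

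Rab3d, a secretory granule GTPase from a list of 16 further acinar genes and in the mouse a known target of Bhlha15, had higher means at P12.5 than NP at both sites. It read 8.9, 8.9, 9.0 and 8.8 in P12.5 islets, against 8.3, 8.3, 8.4 and 8.2 in NP islets (0.60 ± 0.07, SE; adjusted p = 0.00461, limma). In the grafts it read 8.7, 9.0 and 8.4 in female grafts at P12.5, against 7.5, 7.9 and 8.0 in female grafts NP (0.90 ± 0.21; adjusted p = 0.0493). Male grafts read 8.7, 8.7 and 8.1 at P12.5, against 7.8, 8.0 and 8.1 NP (0.53 ± 0.21; adjusted p = 0.19, not called). Over both donor sexes it rose by 0.72 ± 0.15 (adjusted p = 0.0129). That call held in 18 of 18 alternative settings and the islet call in 10 of 14. The islet difference was under the fold limit without P12.5 array 3 or NP array 4 (0.57) and after renewed quantile normalisation (0.53). With all 20 arrays in the fit the islet call was lost on its adjusted p (0.60, adjusted p = 0.071, limma). The female graft call held in 3 of 12 (adjusted p from 0.0692 to 0.156 when any 1 array was left out). Rab3d was the only one of the 12 measured genes of that list to be called for pregnancy in any of these comparisons. It was singled out by these same calls. Among all probe sets, 0.614% were called up at P12.5 in the islet fit. The graft fit called up 0.836% for female donors, 0.479% for male donors and 1.97% over both donor sexes. A link between the levels of Rab3d and Bhlha15 was not tested.

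In the grafts, too, no member was called for pregnancy. The counts were 0 of 33 in female grafts (background 0.836% up and 0.859% down), 0 of 33 in male grafts (0.479% and 0.453%) and 0 of 33 over both donor sexes (1.97% and 2%). Medians were 0.10, 0.07 and 0.08, against 0.03, 0 and 0.02 over all genes, and 6, 5 and 9 members had an unadjusted p under 0.05. The share of all probe sets that passed a p limit alone, adjusted or not, was not counted. Over both sexes 3 members had an adjusted p under 0.05 with small differences: Serpini2 (0.32 ± 0.06, adjusted p = 0.0131), Pnliprp2 (0.38 ± 0.08, adjusted p = 0.0142) and Ctrb1 (0.45 ± 0.10, adjusted p = 0.0201). All 3 differences were under the fold limit and at levels close to or below the array median: Pnliprp2, a lipase relative, lay at 5.0 to 5.3 in the P12.5 grafts and at 4.7 to 5.0 in the NP grafts. Amy1 had the opposite sign (-0.48 ± 0.16 over both sexes, adjusted p = 0.0702).

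**Figure D5:**
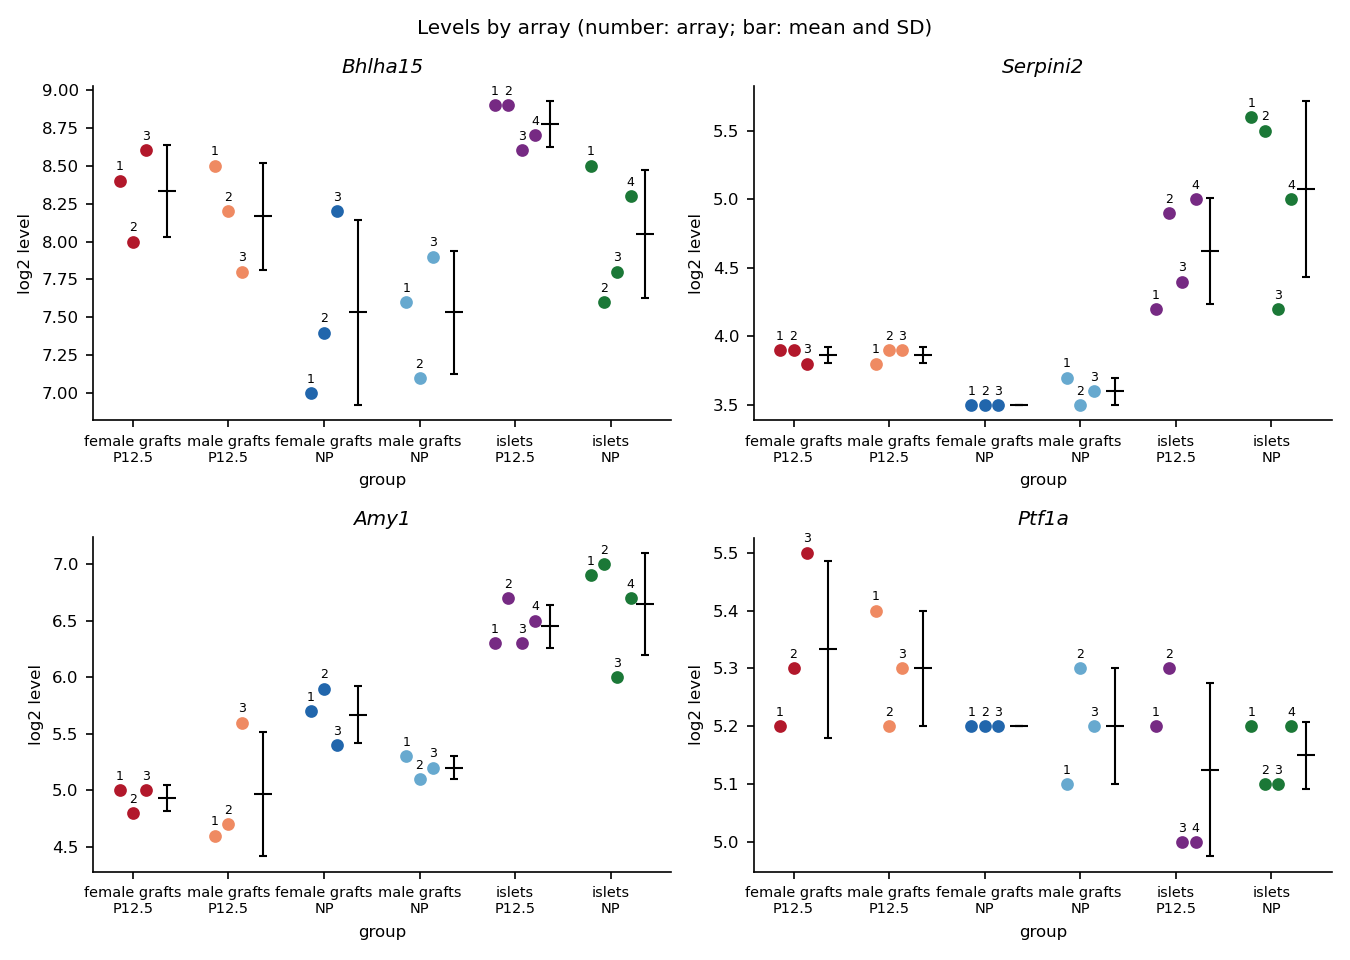
Log2 levels of Bhlha15, Serpini2, Amy1 and Ptf1a in each array, by group, with the group mean and SD and array numbers; the vertical scale differs between panels. Bhlha15 lies at 8.6 to 8.9 in P12.5 islets and at 7.6 to 8.5 in NP islets, and Serpini2 in the grafts at 3.8 to 3.9 at P12.5 and at 3.5 to 3.7 NP.

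Donor sex made no called difference to the members. Male and female grafts differed in 0 of 33 members at P12.5 (background 0.0113% up and 0% down; 1 member with an unadjusted p under 0.05) and in 0 of 33 NP (0.0141% up and 0% down; 1 member), with medians of 0 and 0.07. The mean over the 33 genes was 5.31 ± 0.03 in male and 5.25 ± 0.05 in female grafts at P12.5, and 5.21 ± 0.07 in male and 5.20 ± 0.05 in female grafts NP (SD, n = 3 each). The interaction of transplantation with pregnancy in female tissue was called for 0 of 33 members (background 0.0338% up and 0.0169% down), 2 having an unadjusted p under 0.05. Its median was 0.22, with 30 of 33 values above 0, but 0.64 without NP islet array 3 and 0.04 without P12.5 islet array 1 or without NP islet array 2. The interaction of donor sex with pregnancy was called for 0 of 33 (0% in either direction), 1 having an unadjusted p under 0.05. For the numbers of signs and of unadjusted p given here, the shares over all genes were not counted. A median standard error of 0.13 for a member in the graft comparisons and of 0.52 in the interaction with transplantation shows how coarse each is.

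Other genes known from acinar cells gave a mixed picture. Of the 12 measured further genes, the same 4 fell in all 4 graft comparisons: 2210010C04Rik, Pdia2, a pancreatic protein disulphide isomerase, Prss3 and Cela3a (background 1.22% to 5.25% of all probe sets called down). In female grafts NP they were 46.9-fold, 3.03-fold, 4.09-fold and 2.61-fold lower. Reg1, a secreted lectin of acinar cells known to rise on injury, was at 4.0 to 4.8 in the grafts and at 6.8 to 9.1 in the islets, and fell in all 4. Of the 7 Reg genes, 1 fell in female grafts at P12.5, 3 in female grafts NP, 2 in male grafts at P12.5 and 3 in male grafts NP, against 1.22%, 5.02%, 2.56% and 5.25% of all probe sets.

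The non-members whose deviations in the 8 islet arrays were most like the member mean were 2210010C04Rik (r = 0.996), Dmbt1 (r = 0.986), Pdia2 (r = 0.966), Reg1 (r = 0.963) and Cela3a (r = 0.946), out of 491 genes with an SD of at least 0.25. Dmbt1 was at 4.4 to 4.8 in the grafts and at 6.3 to 8.4 in the islets. These values describe likeness over 8 arrays that share 2 states and carry no test.

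Genes of other cell types in the samples were counted beside the acinar genes, in comparisons that called 2.83% to 5.99% of all probe sets up and 1.22% to 5.25% down. Of 20 measured ductal genes 3 rose and 0 fell in female grafts at P12.5, and 4 rose and 1 fell in female grafts NP. In male grafts 4 rose and 1 fell at P12.5, and 5 rose and 1 fell NP. The ductal medians were 0.017, -0.017, -0.017 and -0.025 in that order, so most of the list was flat. Krt19, a duct keratin that other epithelia also make, was among the genes that rose, at 6.6 to 9.3 in the grafts and at 5.2 to 5.6 in the islets. Of 22 immune genes 15 to 20 rose per comparison, and of 19 stromal genes 12 to 15. Of 14 endothelial genes 2 to 7 fell. Of 20 endocrine genes 0 rose and 0 to 3 fell.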

How the data were processed

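The authors preprocessed the raw array files with robust multichip analysis and deposited log2 values, rounded to 1 decimal, for 35511 probe sets on 20 arrays; the build behind the probe annotation is not given in the sources used here. Probe sets were named from the platform annotation (21789 with 1 symbol, 1621 with several, 12101 with none). Linear models (limma 3.58.1, R 4.3.3) with eBayes were fitted over all probe sets: the 8 islet arrays for islets, the 12 graft arrays for grafts, and all 20 for grafts against islets and their interaction. P-values were adjusted by Benjamini-Hochberg over all probe sets, and calls needed an adjusted p under 0.05 and a fold of at least 1.5. Labels call the samples biological replicates. The fit was tested on simulated data in which probe sets varied independently, unlike the members in the islets. The members and lists were chosen with earlier results of these data known. Array values are given for the member of each role with the highest islet mean, and for the 4 largest falls and the 4 largest rises or smallest falls in female grafts NP. The number of arrays limits the precision. Alternatives were array medians subtracted, renewed quantile normalisation, a filter on low probe sets, the mean over all probe sets of a gene, other arrays in the fit, a replicate block, and leaving out each array.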

Additional observations from a re-analysis of the deposited data

Results flagged for a closer look

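Each member was examined in both islet groups of 4 arrays for an array far from the rest, 66 sets in all, and 2 stood out, where chance alone marks about 1 in 20. Cpb1 in NP islets had its lowest array at 9.0, array 3, while the others were at 11.0 to 11.4. Ctrc in P12.5 islets had its highest array at 6.2, with the other 3 at 6.0. Values are rounded to 1 decimal, so such ties can flag a small gap. The 66 sets share the islet arrays, so 1 in 20 is only a rough guide.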

How the results depend on the processing

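The falls of the 23 genes called in all 4 graft comparisons kept their direction in every alternative, and of the member calls 3 lost theirs in some: Erp27 in female grafts NP, and Serpini2 and Tff2 in male grafts at P12.5. Of 1746 recomputed values 1716 were unchanged in call or within the spread, and no called gene changed direction. Medians over the members that were not called did change sign: the islet pregnancy median ran from -0.58 to 0.033 when an array was left out. With renewed quantile normalisation, with the filter on low probe sets and with all 20 arrays in the fit, 1 member, Bhlha15, was called up for pregnancy over both donor sexes. In the same comparison leaving out an array gave 0 to 1 members up (Bhlha15, without female graft NP array 3 or male graft P12.5 array 3) and 0 to 1 down, the 1 down being Amy1 without male graft array 3 at P12.5. The median member change in male grafts for pregnancy was -0.033 with array medians subtracted, 0.011 after renewed quantile normalisation and 0.017 to 0.13 when an array was left out, and over both sexes it was 0.017 with array medians subtracted. For male minus female grafts at P12.5 it ran from -0.017 to 0.067 without an array. Members called up in female grafts NP against islets numbered 2, Dnase1 and Spink1, with renewed quantile normalisation or only the groups of the comparison. Leaving out an array gave 0 to 2 members up in male grafts at P12.5 against islets (2 without array 2) and 0 to 1 in male grafts NP (1 without array 1). Replicate numbers were not treated as pairs in the main fits. Same-numbered deviations correlated at -0.03, 0.11, -0.01 and 0.23 between P12.5 and NP islets. Between male and female grafts they correlated at 0.04, 0.28 and 0.37 at P12.5 and at 0.00, -0.15 and 0.03 NP. Whether the numbers mark a shared batch of grafts was not tested. With a replicate block the fall of Serpini2 in male grafts at P12.5 was -0.71 (adjusted p = 0.0819, not called), Rab3d lost its call in female grafts (adjusted p = 0.0735), and no other member call changed. The covariation without the 2 farthest islet arrays (median r 0.95) was chosen after seeing the data, and its group means still included those arrays. Graft levels at or below the array median limit what a fall can show.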

Other observations

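The probe sets that name several paralogues were kept apart from the members, since none can be given to a single gene. The 6 probe sets annotated jointly to Amy2a2, Amy2a5 and Amy2b, the pancreatic amylases, lay at 3.6 to 4.7 in the grafts and at 10.7 to 12.8 in the islets. The 2 probe sets annotated jointly to Gm10334, Gm5771, Prss1 and Prss3 lay at 4.8 to 5.6 in the grafts and at 6.2 to 10.1 in the islets. For both sets of probe sets the lowest islet value was above the highest graft value.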
